A study of Homo sapiens with 34 samples.

Results

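The human histone cluster genes are the genes for the linker histone H1 and the core histones H2A, H2B, H3 and H4 that lie in the HIST1 to HIST4 clusters. Of the 20255 genes of the expression table, 46 had a symbol that begins with HIST1H, HIST2H, HIST3H or HIST4H, and the choice used no measured value. They comprised 4 H1, 12 H2A, 14 H2B, 8 H3 and 8 H4 genes, with 33 on chromosome 6, 12 on chromosome 1 and 1 on chromosome 12. RNA was sequenced from 34 samples of a single line, the H1 human embryonic stem cells (hESC, whose name has nothing to do with histone H1), during blood differentiation without added haematopoietic cytokines. The 12 populations were undifferentiated hESC without treatment (n = 1), day 0 EBs in BMP4 and hVEGF, total differentiated hESC of days 2 and 4 labelled hVEGF, and, on days 6, 9, 12 and 16 in hVEGF, cells sorted into CD43+ and CD43- fractions (n = 3 independent replicates each). BMP4 accompanied hVEGF at the start of the protocol and was then left out. On day 16 the negative fraction was CD43-CD45- and the positive one CD43+/CD45+. CD43, encoded by SPN, is a surface sialoglycoprotein of early blood cells, and CD45 is a phosphatase of the leukocyte surface encoded by PTPRC. SPN lay between 18 and 328 in the 12 CD43- samples and between 2338 and 9460 in the 12 CD43+ samples, so the sort and its labels went together.

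Each cell cycle requires a new set of histones to package the copied DNA, and most of these proteins come from the clustered genes, which are transcribed in S phase. Their mRNAs usually carry no poly(A) tail and end in a conserved stem-loop, which is bound by the protein SLBP. The transcript is cut just past the stem-loop with the help of the U7 small nuclear RNA, while NPAT at the histone locus body drives transcription of the genes. A few of the genes, among them HIST1H1C, HIST1H2AC, HIST1H2BD, HIST1H2BK and HIST2H2BE, are also known to give longer, polyadenylated transcripts in cells that differentiate or stop dividing. Libraries made by selecting poly(A) tails therefore see the members unevenly. The sources used here do not say whether these libraries were selected in that way or kept strand.

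The stem-loops are shown first, because they mark where the usual short mRNA ends and how far an annotated transcript runs beyond it. The GENCODE v29 transcripts (GRCh38) of 28 of the 46 members held a match to the stem-loop, 16 of them with the letters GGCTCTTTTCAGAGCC, compared with 129 of 58676 annotated genes of all kinds (0.22%). In 21 members an annotated transcript ran at least 100 bases past it, in 7 the transcripts that held it ended near it, and in 18 no annotated transcript held one. Some of these 18 have short annotations, such as 381 bases for HIST1H2BK, so a missing match need not mean that the gene lacks a stem-loop. The 16 stem-loop bases stand in capitals, with 5 bases of flank on either side, for HIST1H2AC (chr6:26124664-26124689, plus strand), HIST2H2BE (chr1:149886183-149886208, minus strand), HIST1H2BD (chr6:26158582-26158607, plus strand), HIST2H3A (chr1:149853100-149853125, plus strand) and HIST1H4J (chr6:27824454-27824479, plus strand).
HIST1H2AC: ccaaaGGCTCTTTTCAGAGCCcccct
HIST2H2BE: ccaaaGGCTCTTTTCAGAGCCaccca
HIST1H2BD: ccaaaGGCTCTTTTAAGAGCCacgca
HIST2H3A: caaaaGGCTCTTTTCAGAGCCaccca
HIST1H4J: taaaaGGCCCTTTTCAGGGCCaccct
The annotated transcripts of HIST1H2AC continued for 1128 bases past the stem-loop in the longer case, that of HIST2H2BE for 1729 and that of HIST2H3A for 1154, whereas that of HIST1H4J continued for 6.

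The promoters are shown because H2A and H2B genes often sit head to head and share 1 upstream region. RefSeq windows (GRCh38.p14) of 250 bases before to 50 after the start were found for 41 members and were searched on both strands. ATTTGCAT, the octamer bound by OCT factors, was in 8 of 12 H2A and 9 of 12 H2B windows and in none of the 17 H1, H3 and H4 windows, compared with 411 of 22114 windows of all genes (1.86%). Windows of head-to-head partners overlap, so the same site can be counted for both genes and the windows are not independent. CCAAT was in 35 of the 41 (85.4%), with 1 of 7 H4 windows, against 36.2% of all windows. TATAAA was in 25 of the 41 against 12.7%, and AAACACA, known from H1 promoters, in all 4 H1 windows and 7 of the 41 against 5.95%. The windows of HIST2H2BE (H2B, chr1:149886633-149886932, minus strand), HIST1H2AC (H2A, chr6:26123922-26124221, plus strand) and HIST1H1C (H1, chr6:26056421-26056720, minus strand) follow, with matches to these motifs on either strand in capitals.
HIST2H2BE: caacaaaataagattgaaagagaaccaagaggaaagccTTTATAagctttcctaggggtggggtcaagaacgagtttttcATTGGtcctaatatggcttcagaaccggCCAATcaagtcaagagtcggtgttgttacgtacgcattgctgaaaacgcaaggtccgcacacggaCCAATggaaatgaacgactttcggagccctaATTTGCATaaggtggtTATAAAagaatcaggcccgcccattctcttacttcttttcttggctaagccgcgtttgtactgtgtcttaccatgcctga
HIST1H2AC: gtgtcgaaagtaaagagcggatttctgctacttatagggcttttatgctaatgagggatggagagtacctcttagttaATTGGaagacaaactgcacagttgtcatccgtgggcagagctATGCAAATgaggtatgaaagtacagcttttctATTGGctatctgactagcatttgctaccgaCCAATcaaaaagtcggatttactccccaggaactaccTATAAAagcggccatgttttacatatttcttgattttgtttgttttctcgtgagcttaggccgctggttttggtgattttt
HIST1H1C: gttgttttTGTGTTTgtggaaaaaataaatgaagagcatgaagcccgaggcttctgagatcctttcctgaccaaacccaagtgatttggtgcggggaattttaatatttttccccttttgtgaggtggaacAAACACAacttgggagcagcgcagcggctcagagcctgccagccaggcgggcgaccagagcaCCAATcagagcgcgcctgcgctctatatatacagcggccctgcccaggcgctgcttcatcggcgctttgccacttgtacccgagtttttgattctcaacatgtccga
A match is only a match of letters, and no binding was measured here.

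The members were a small part of the RNA in every sample. Values are the deposited GC-normalised tag counts, in which every sample was made to sum to 17856940, so the depth of the libraries is unknown and a value is a relative level. The members together held between 0.0055% and 0.0673% of that sum, and their summed value was 992 to 1160 on day 4, 5497 to 5917 in day 9 CD43+ cells and 8907 to 12012 in day 16 CD43+ cells. In bulk samples, fewer cells of a type and less RNA per cell cannot be told apart. The highest value of any member was 2368, for HIST2H2AA4 in day 16 CD43+ cells, an entry that shares its reads with an identical copy, while 22 members were listed at 0 in at least 1 sample. Divided by annotated exonic length and with identical copies summed, the order of the levels differed between populations. In the undifferentiated sample the value per kilobase was highest for HIST1H4J (1021), followed by the pair HIST2H2AA3 and HIST2H2AA4 (337). In day 16 CD43+ cells the mean value per kilobase was 3951 for that pair, 1380 for HIST1H1C and 1014 for HIST1H2AC.

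The members were highest in late CD43+ cells rather than in the pluripotent or early cells. The highest population mean fell in day 16 CD43+ cells for 23 members, all 4 H1 genes among them, in day 9 CD43+ cells for 17 and in day 12 CD43+ cells for 3. The exceptions were HIST1H4J, highest at 381 in the undifferentiated sample, HIST1H3G, highest on day 2 at 31, 36 and 38, and HIST1H2BD, highest in day 16 CD43- cells at 568, 426 and 422. For 14 members every sample of the top population lay above every sample of the next, which held for 38.5% of all genes. None of the H1 genes was among the 14. HIST2H2AA3, whose highest mean was in day 12 CD43+ cells, is an entry that shares its reads with an identical copy. Replicate 2 of day 16 CD43+ cells was the highest of its 3 replicates for 38 of the 46 members. For all genes that share was not determined. In 33 of the 46 members all day 9 CD43+ samples were above each of the 9 samples of days 0, 2 and 4, against 25.0% of all genes and 14 of the 41 genes of a list for DNA replication and mitosis.

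Levels of dividing cells were followed with that list, which holds genes such as MKI67, a marker of cycling nuclei, TOP2A, the topoisomerase that untangles replicated DNA, and PCNA, the sliding clamp of the replication fork. Its median log2(value + 1) was 11.22 ± 0.09, 11.42 ± 0.02 and 11.31 ± 0.04 in the samples of days 0, 2 and 4, and 11.31 ± 0.02 in day 9 CD43+ cells (SD, n = 3). The median over the 46 members was 3.57 ± 0.21, 4.08 ± 0.15, 3.39 ± 0.12 and 5.89 ± 0.21 in the same populations. Day 9 CD43+ cells had replication genes at the level of days 0 and 4, and a member median above that of every sample of those days. The member median minus that of the list was -6.56 in the single undifferentiated sample. It was -7.65, -7.34 and -7.92 on days 0, 2 and 4, and -5.41 in day 9 CD43+ cells. Samples of days 0, 2 and 4 were also those low in RMRP and RPPH1, RNAs without a poly(A) tail that are described below. The part of the libraries in this contrast was not tested.

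The types did not share 1 profile. H1 was the type with the lowest median in CD43- cells, at 1.66 ± 1.20, 1.83 ± 0.76, 1.28 ± 0.96 and 1.23 ± 0.38 on days 6, 9, 12 and 16 (median log2 level, SD, n = 3). In CD43+ cells the H1 median was 3.16 ± 0.64, 4.84 ± 0.49, 4.94 ± 0.96 and 5.79 ± 0.52 on those days, and from day 9 no CD43+ sample overlapped a CD43- sample. H2A, H3 and H4 were highest in day 9 CD43+ cells, at 6.40 ± 0.14, 5.39 ± 0.34 and 6.34 ± 0.06, and H2B in day 16 CD43+ cells at 6.05 ± 0.16, although the day 9 and day 16 CD43+ samples overlapped for H2A, H2B and H3. Over the 12 population means, which share 1 line, Spearman's rho between a type's median and that of the replication list was 0.55 for H3, 0.47 for H1, 0.43 for H2A, 0.17 for H4 and -0.14 for H2B, given here only as a description.

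**Figure D1:**
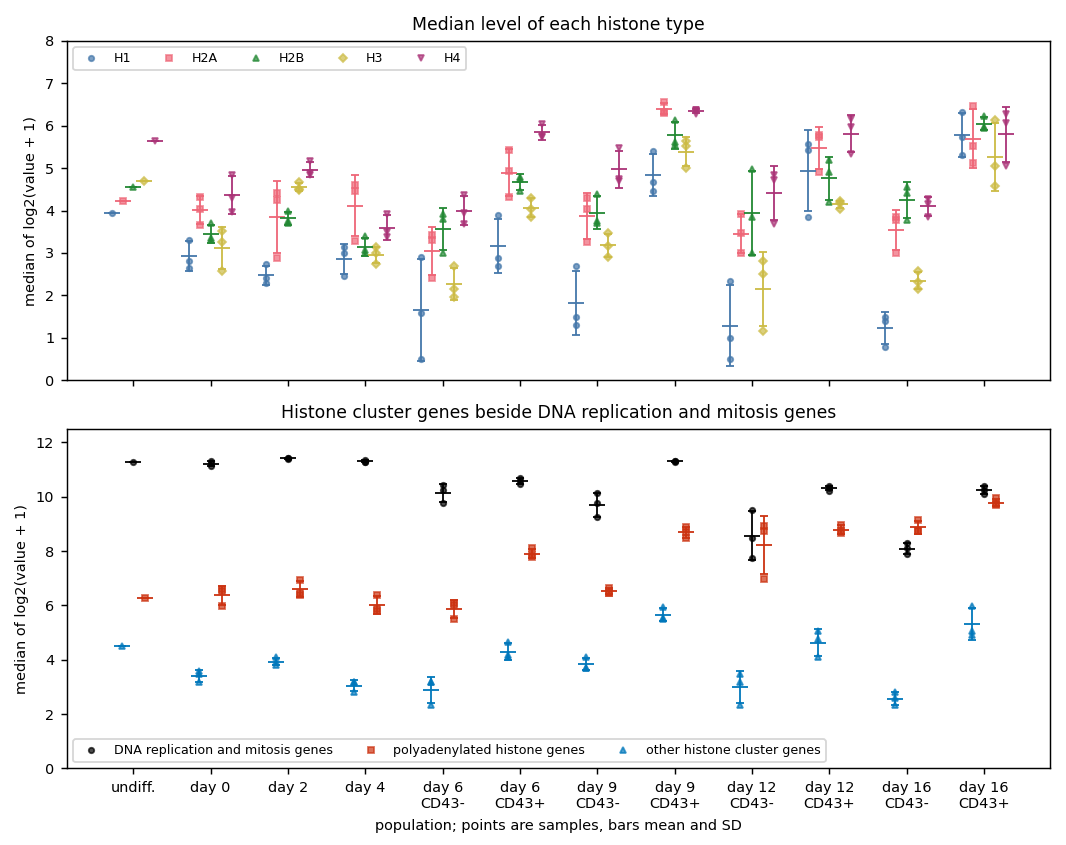
Median of log2(normalised tag count + 1) by population for the 5 histone types (upper panel). The lower panel shows the 5 polyadenylated genes, the other histone cluster genes and the 41 DNA replication and mitosis genes. Points are samples, bars the mean and SD. The replication list ends at 8.09 in day 16 CD43- cells while the polyadenylated genes stand at 8.87 there.

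The CD43+ and CD43- fractions of the same day were compared with limma on log2(value + 1), and a gene was called at a Benjamini-Hochberg adjusted p below 0.05 and a fold change above 4. Of the 45 members that passed the filter on low values, 15 were higher in CD43+ cells on day 6 (4.68% of all genes tested), 25 on day 9 (8.65%), 11 on day 12 (11.8%) and 24 on day 16 (12.2%). None was lower on any of the 4 days, where 7.85%, 12.8%, 14.4% and 13.6% of all genes were, and none was lower at an unadjusted p below 0.05. The median log2 fold change of the members was 1.64, 2.11, 1.17 and 2.20, beside 0.14, 0.24, 0.22 and 0.14 for all genes tested. In total 33 members were called on at least 1 day, and 38 had a positive value on all 4. The share of all genes was not determined for either count, so neither can be read against a background. HIST1H2AI and HIST1H3A, chosen after their values were seen, were called on all 4 days.

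Read without a threshold on size, 37 members had every CD43+ sample above every CD43- sample on day 6 (33.9% of all genes), 42 on day 9 (42.2%), 20 on day 12 (35.2%), and on day 16 it was 38 (40.3%). The reverse held for 1 member, HIST4H4 on day 9 (28.7% of all genes), with 14, 12 and 19 in CD43+ and 22, 24 and 32 in CD43- cells. The day 6 count of calls fell from 15 to 9 without CD43- replicate 1, and the counts fell to 2, 10, 2 and 7 on the 4 days with a pseudocount of 10 in place of 1. Most members are low, and their fold changes depend on what is added before the logarithm.

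**Figure D2:**
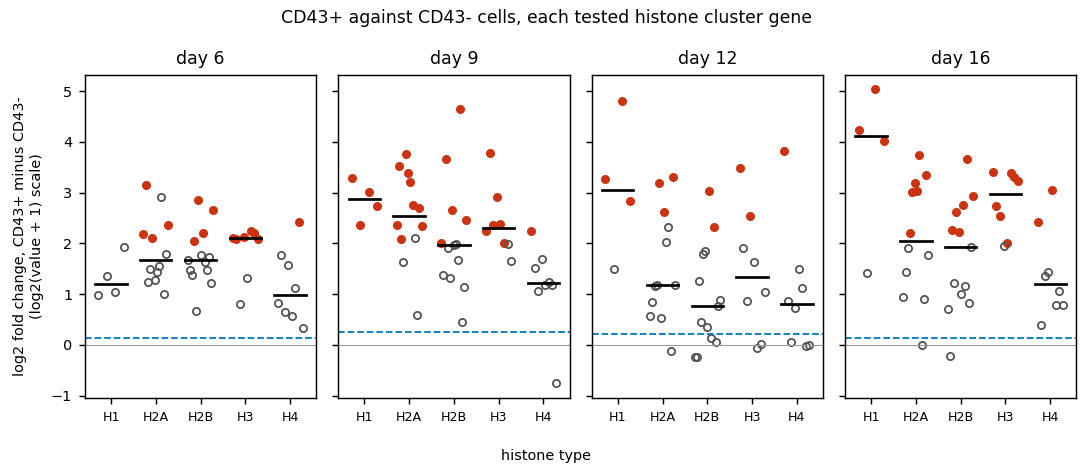
Log2 fold change between CD43+ and CD43- cells on the log2(value + 1) scale for each of the 45 tested histone cluster genes, by histone type, in 1 panel for each of days 6, 9, 12 and 16; filled points passed the threshold. The median over the members was 1.64, 2.11, 1.17 and 2.20 in the 4 panels.

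By type, the calls on days 6, 9, 12 and 16 were 0, 4, 3 and 3 of 4 for H1, 4, 9, 3 and 6 of 12 for H2A, 4, 5, 2 and 6 of 13 for H2B, 6, 6, 2 and 7 of 8 for H3, and 1, 1, 1 and 2 of 8 for H4. On day 16 the median log2 fold change was 4.12 for H1, 2.98 for H3, 2.05 for H2A, 1.94 for H2B and 1.21 for H4. The replication list had 0, 5, 17 and 26 of its 41 genes called higher on the 4 days and none called lower. Of all genes tested, 4.68%, 8.65%, 11.8% and 12.2% were called higher. The medians of the list were 0.57, 1.56, 1.98 and 2.13. On day 6, where no replication gene reached the threshold and 19 of 41 had an adjusted p below 0.05 in either direction, 27 of the 45 members had one, all with higher values in CD43+ cells (28.9% of all genes tested).

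The cells compared also differ in kind. Summed values of 5 erythroid marker genes were 105826 to 114805 in day 6 and 116564 to 197296 in day 9 CD43+ cells, and those of 5 granulocyte markers were 139598 to 158172 in day 12 and 134282 to 168062 in day 16 CD43+ cells. Summed mesenchymal markers were 145898 to 245542 across the CD43- samples. The part of cell type in the histone differences was not tested.

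Linker histones bind where DNA enters and leaves the nucleosome, and the 4 H1 genes of the table lie on chromosome 6 between HIST1H1C (chr6:26055787-26056428, minus strand) and HIST1H1B (chr6:27866849-27867529, minus strand). HIST1H1D (chr6:26234268-26234933) was 1, 0 and 0 in day 16 CD43- cells and 32, 54 and 38 in day 16 CD43+ cells. This was the largest rise of any member on that day, with a log2 fold change of 5.04 (SE 0.71, adjusted p = 6.3e-07). On day 12 it was listed at 0 in all CD43- samples and at 16, 30 and 40 in CD43+ cells (adjusted p = 1.3e-06), and on day 6 the values of 0, 1 and 2 against 1, 12 and 1 overlapped (adjusted p = 0.24).

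HIST1H1B, a variant linked to dividing cells, was listed at 0 in all day 16 CD43- samples and at 6, 62 and 14 in CD43+ cells (adjusted p = 9.8e-05). On day 9 it was 1, 1 and 2 against 32, 25 and 12, a log2 fold change of 3.29 (SE 0.86, adjusted p = 0.0015). HIST1H1E had 3, 6 and 2 in day 16 CD43- and 46, 102 and 72 in CD43+ cells, which gave a log2 fold change of 4.01 (SE 0.86, adjusted p = 0.00018). For all 3 genes the fractions of days 9 and 16 did not overlap.

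HIST1H1C, the H1 gene with polyadenylated transcripts, was the most abundant H1 gene and behaved otherwise. It was 418, 248 and 348 in day 16 CD43- cells and 840, 988 and 830 in CD43+ cells, and the log2 fold change of 1.42 (SE 0.37, adjusted p = 0.0016) stayed under the 4-fold threshold. On day 9 it was 88, 80 and 100 against 420, 493 and 475 (2.36, SE 0.37, adjusted p = 3.7e-06). Within CD43- cells it was the only H1 gene with values above 15 after day 6, reaching 99, 482 and 432 on day 12.

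Among H2A genes, HIST1H2AC (chr6:26124145-26139116, plus strand) was 44, 48 and 66 in day 6 CD43- cells and 218, 273 and 228 in CD43+ cells, with a log2 fold change of 2.18 (SE 0.29, adjusted p = 6.2e-07). It was 65, 88 and 100 against 464, 356 and 484 on day 9 (2.36, SE 0.29, adjusted p = 7.1e-08), and 126, 470 and 358 against 372, 500 and 380 on day 12, where the fractions overlapped (0.58, SE 0.29, adjusted p = 0.08). On day 16 both fractions were high, at 932, 880 and 812 and at 1736, 1948 and 1392 (0.94, SE 0.29, adjusted p = 0.0058). HIST1H2AD, the largest rise on day 6, was low throughout, at 1, 3 and 0 against 20, 13 and 18 (3.15, SE 0.64, adjusted p = 0.00018).

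HIST2H2AA3 and HIST2H2AA4 have annotated transcripts of 549 and 564 bases that are identical over 549 bases. Reads from that stretch cannot be told apart, and levels are given as their sum. Pairs with such a shared stretch are called identical here. The sum was 185 in undifferentiated hESC, 148, 152 and 134 on day 4, and in CD43+ cells 460, 626 and 550 on day 6 and 838, 957 and 810 on day 9. By day 16 it was 1206, 1125 and 1122 in CD43- and 2192, 2368 and 1948 in CD43+ cells, which gave a log2 fold change of 0.91 (SE 0.27, adjusted p = 0.0039). The single entries moved with the assignment of shared reads. HIST2H2AA3 was listed at 0 in all 6 day 16 samples and the called falls of this entry from day 12 to day 16 turned into log2 changes of 0.90 in CD43+ (adjusted p = 0.0080) and 0.30 in CD43- cells (adjusted p = 0.37) once the pair was summed.

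Among H2B genes, HIST1H2BO had the largest rise on day 9, from 2, 0 and 2 in CD43- to 69, 41 and 48 in CD43+ cells (log2 fold change 4.66, SE 0.62, adjusted p = 2.5e-07). It stayed at 2 or less in all CD43- samples of days 9, 12 and 16, and was 10, 8 and 22 in day 12 and 26, 42 and 20 in day 16 CD43+ cells. HIST1H2BK (chr6:27146418-27146798, minus strand), which also gives polyadenylated transcripts, was 97, 129 and 138 in day 9 CD43- and 479, 436 and 499 in CD43+ cells. Its log2 fold change of 1.96 (SE 0.25, adjusted p = 1.2e-07) fell just short of the threshold, and leaving out CD43- replicate 2, CD43- replicate 3 or CD43+ replicate 2 brought it to 2.01, 2.06 and 2.02. On day 12 the fractions overlapped, with 207, 489 and 498 against 496, 492 and 424.

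H2A and H2B form a dimer, and 9 head-to-head pairs of their genes had starts 219 to 323 bases apart. Over the 12 population means Spearman's rho between partners was 0.90 for HIST1H2AC with HIST1H2BC and for HIST1H2AE with HIST1H2BG, and lowest, at 0.10, for HIST2H2AC with HIST2H2BE, the others lying in between, which is a description of 12 points that share libraries. HIST2H2AC, named after its values were seen, and HIST2H2BE (chr1:149884459-149886652, minus strand) had starts 323 bases apart. In day 16 CD43- cells HIST2H2AC was 3, 3 and 2 while HIST2H2BE was 884, 1004 and 909. In day 16 CD43+ cells they were 24, 96 and 20 and 1624, 1752 and 1548, so the log2 fold change between fractions was 3.35 (SE 0.52, adjusted p = 2.3e-06) for HIST2H2AC and 0.82 (SE 0.29, adjusted p = 0.015) for HIST2H2BE. On day 9 HIST2H2AC was 8, 12 and 22 against 80, 88 and 102 (2.70, SE 0.52, adjusted p = 5.1e-05), whereas HIST2H2BE was 189, 258 and 215 against 267, 332 and 307 (0.46, SE 0.29, adjusted p = 0.17).

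H3 and H4 form the tetramer at the centre of the nucleosome. HIST1H3H (chr6:27810064-27811300, plus strand), the H3 gene with the highest mean value, was 22, 24 and 40 in day 9 CD43- and 235, 207 and 208 in CD43+ cells, which gave a log2 fold change of 2.92 (SE 0.38, adjusted p = 1.9e-07). On day 12 it was 10, 28 and 24 against 70, 185 and 120 (2.55, SE 0.38, adjusted p = 1.3e-06). On day 6 it was 11, 16 and 25 against 104, 81 and 50 (2.12, SE 0.38, adjusted p = 4.1e-05), a call that was lost without CD43- replicate 1 (1.85) or CD43+ replicate 1 (1.89).

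The identical pair HIST2H3A and HIST2H3C, with transcripts of 1656 bases, differed between the fractions on some days and not on others. Their sum was 23, 60 and 56 in CD43- and 180, 172 and 283 in CD43+ cells on day 6 (log2 fold change 2.25, SE 0.45, adjusted p = 0.00014), and 74, 48 and 72 against 232, 303 and 250 on day 9 (2.02, adjusted p = 0.00028). On day 12 it was 44, 87 and 48 against 48, 54 and 68, with no separation (-0.02, SE 0.45, adjusted p = 0.98), and on day 16 it was 24, 28 and 22 against 303, 382 and 165 (3.39, SE 0.45, adjusted p = 1.8e-07). The day 16 difference exceeded that of day 12 by 3.41 (SE 0.63, adjusted p = 0.00049), and the day 12 difference was below that of day 9 by a change of -2.04 (SE 0.63, adjusted p = 0.016). HIST2H3A overlaps HIST2H4B and HIST2H3C overlaps HIST2H4A on the genome, and without a stated strand the reads of overlapping genes cannot be told apart.

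HIST1H4J (chr6:27824108-27824480, plus strand), whose annotated transcript ends near the stem-loop, was 381 in the undifferentiated sample, 188, 92 and 220 on day 0, 176, 126 and 169 on day 2, and 101, 72 and 88 on day 4. In CD43- cells it was 106, 160 and 174 on day 6, 122, 72 and 146 on day 9, 64, 54 and 40 on day 12 and 8, 4 and 14 on day 16. The fall from day 12 to day 16 had a log2 fold change of -2.59 (SE 0.39, adjusted p = 6.6e-06), and with 82, 126 and 36 in day 16 CD43+ cells the fractions differed by 3.06 (SE 0.39, adjusted p = 1.1e-07). On day 6 the fractions differed by 0.57 (SE 0.39, adjusted p = 0.23). The identical pair HIST2H4A and HIST2H4B summed to 54, 74 and 69 in day 6 CD43- and 205, 188 and 212 in CD43+ cells (1.61, SE 0.31, adjusted p = 0.00011), and to 257, 233 and 230 against 502, 468 and 381 on day 16 (0.90, SE 0.31, adjusted p = 0.013).

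The 5 genes known for polyadenylated transcripts, HIST1H1C, HIST1H2AC, HIST1H2BD, HIST1H2BK and HIST2H2BE, had higher medians on each later day in CD43- cells, while the medians of the replication list were lower. Their median log2 level in CD43- cells was 5.87 ± 0.33, 6.54 ± 0.11, 8.22 ± 1.07 and 8.87 ± 0.24 on days 6, 9, 12 and 16, beside 10.15 ± 0.33, 9.71 ± 0.44, 8.57 ± 0.89 and 8.09 ± 0.20 for the replication list (SD, n = 3). The other 41 members were at 2.89 ± 0.49, 3.83 ± 0.22, 2.98 ± 0.59 and 2.57 ± 0.24. As summed values, however, those 41 members also had a higher mean on each later day, at 854, 1253, 1721 and 2054. The sums of the 5 genes had means of 319, 570, 1791 and 2795. Among the 41, the identical pair HIST2H2AA3 and HIST2H2AA4 alone had mean sums of 240, 484, 1022 and 1151. Higher sums on later days were thus not particular to the 5 genes, but the median of the other 41 did not rise on each later day. Between days 9 and 12 the 5 genes had, in CD43- cells, log2 fold changes with a median of 1.61, all with an adjusted p below 0.05 (15.9% of all genes tested were higher at that threshold) and none above 4-fold, whereas the replication list had a median of -1.13.

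From day 12 to day 16 the 5 genes did not move as one. HIST1H2BK went down in CD43- cells, from 207, 489 and 498 to 210, 180 and 143 (log2 fold change -1.07, SE 0.25, adjusted p = 0.0010), although the samples of the 2 days overlapped. HIST1H1C changed by 0.27 (SE 0.37, adjusted p = 0.59), while HIST1H2AC changed by 1.65 (SE 0.29, adjusted p = 4.7e-05) and HIST2H2BE by 0.88 (SE 0.29, adjusted p = 0.016).

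HIST1H2BD (chr6:26158146-26171349, plus strand) was 16, 24 and 30 in CD43- cells on day 6, 34, 57 and 72 on day 9, 58, 286 and 132 on day 12 and 568, 426 and 422 on day 16. Its rise from day 12 to day 16 was 1.84 (SE 0.37, adjusted p = 0.00024), and in day 16 CD43+ cells it was 440, 404 and 370, which overlapped the CD43- fraction (-0.21, SE 0.37, adjusted p = 0.63). MKI67 over the same CD43- samples was 2862, 4372 and 3682, then 3484, 2236 and 3854, then 3484, 1406 and 1569, and last 527, 737 and 803. In CD43+ cells both lists were high on day 16, with the 5 genes at 9.79 ± 0.14 and the replication list at 10.25 ± 0.14.

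**Figure D3:**
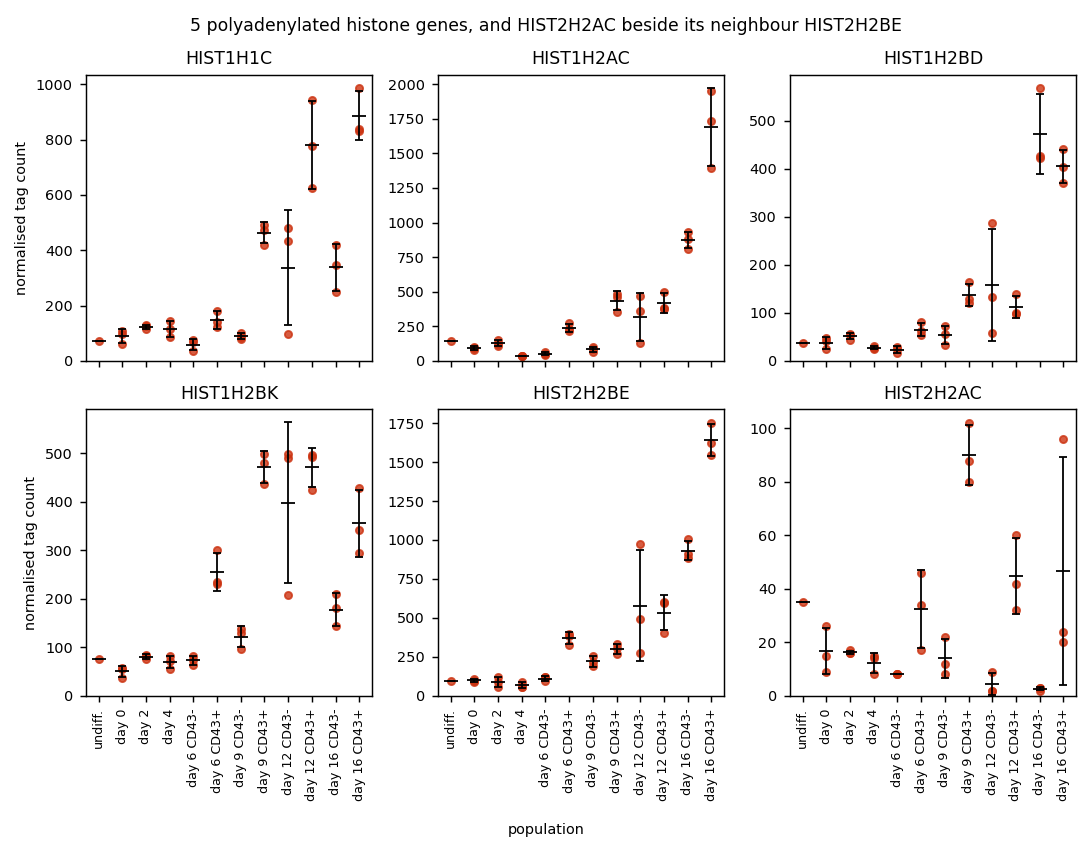
Normalised tag counts by population for HIST1H1C, HIST1H2AC, HIST1H2BD, HIST1H2BK and HIST2H2BE, and for HIST2H2AC, the head-to-head neighbour of HIST2H2BE; points are samples, bars the mean and SD, and each vertical axis starts at 0. In day 16 CD43- cells HIST2H2BE stands at 884 to 1004 and HIST2H2AC at 2 to 3.

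The day 12 CD43- samples were uneven. Replicate 1 was the lowest of the 3 for 23 members, all 5 polyadenylated genes among them, and the highest for 4. The matching shares of all genes were not determined. Replicate 1 also had the highest MKI67 (3484 against 1406 and 1569). Summed macrophage markers were 266, 4079 and 5056 in the 3 replicates, granulocyte markers 80, 464 and 6304, and PTPRC 4, 197 and 371, so all these blood cell values were lowest in replicate 1. Summed values of the 5 histone genes were 762, 2219 and 2392. Without replicate 1 the day 9 to day 12 change in CD43- cells was 2.35 for HIST1H1C, 2.29 for HIST1H2AC and 2.03 for HIST1H2BK, each then past 4-fold, in place of 1.61, 1.73 and 1.61. Day 16 CD43- samples also held granulocyte markers, at 6139 to 20193 in sum, with PTPRC at 18 to 42. What part these cells have in the histone values was not tested.

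In the early steps few members were called. From day 0 to day 2 the calls were 2 higher and 0 lower of 45, about the share among all genes (4.4% and 3.48%, with 2 members lower at an unadjusted p below 0.05), and the 2 were the identical pair HIST2H3A and HIST2H3C. Their sum rose from 22, 6 and 25 to 76, 64 and 104 (log2 fold change 2.32, SE 0.45, adjusted p = 0.00016), and for HIST2H3C the change was 1.60 without day 0 replicate 2 and 1.89 without day 2 replicate 3, under the threshold. The count of calls was 1 without day 0 replicate 2 and 4 without day 2 replicate 2. From day 2 to day 4 there were 5 lower and 0 higher (4.53% and 4.97%, with 2 higher at an unadjusted p below 0.05), and 3 without day 2 replicate 1. HIST2H3D, an H3 gene, fell from 19, 10 and 14 to 2, 2 and 2 (-2.31, SE 0.61, adjusted p = 0.0039). A fall of HIST2H2AA4 in the same step was carried by day 4 replicate 3, without which it was -0.53 (adjusted p = 0.36), and the sum with its identical copy changed by -0.27 (adjusted p = 0.48). The sum of HIST2H4A and HIST2H4B went from 153, 163 and 147 to 43, 50 and 30 (-1.92, SE 0.31, adjusted p = 2.0e-05), with no overlap.

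Both sorted fractions of day 6 were also set against day 4, which they share as reference. In CD43+ cells 14 members were higher and 0 lower (6.8% and 7.73% of all genes, 1 lower at an unadjusted p below 0.05) with a median of 1.61, and in CD43- cells 2 were higher and 2 lower (4.94% and 2.77%) with a median of -0.20. HIST2H2BE went from 54, 58 and 89 on day 4 to 325, 400 and 387 in CD43+ cells (2.48, SE 0.29, adjusted p = 7.9e-08) and to 120, 118 and 94 in CD43- cells (0.74, SE 0.29, adjusted p = 0.039). HIST1H2AC went from 34, 38 and 38 to 218, 273 and 228 in CD43+ cells (2.67, SE 0.29, adjusted p = 2.3e-08). HIST2H2AA4 was among the calls in both fractions, at 3.50 and 2.49, which became 1.72 and 0.71 without day 4 replicate 3 and 1.90 (adjusted p = 1.4e-06) and 0.72 (adjusted p = 0.030) for the sum of the pair.

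The largest change of any member in this step belonged to HIST1H4C (chr6:26103876-26104310, plus strand), an H4 gene named after its values were seen. It was 80 in the undifferentiated sample, 2, 5 and 2 on day 0, 2, 2 and 4 on day 2, 0, 1 and 1 on day 4, then 71, 56 and 54 in day 6 CD43- and 117, 128 and 81 in CD43+ cells. The log2 fold changes from day 4 were 5.26 (SE 0.67, adjusted p = 5.9e-07) and 6.08 (SE 0.67, adjusted p = 2.8e-08). Its highest mean, 206, was in day 9 CD43+ cells, where every sample lay above every sample of the next population. In day 16 CD43+ cells it was 4, 30 and 2 and in CD43- cells 0, 2 and 0.

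Up to day 6, HIST1H4C was low and high in the same populations as RNAs that have no poly(A) tail. RMRP, the RNA of the RNase MRP complex, was 339 in the undifferentiated sample, 1 to 14 on days 0, 2 and 4, 170 to 730 in the 6 day 6 samples and, in day 16 CD43+ cells, 8, 746 and 1. RPPH1, the RNA of RNase P, named after its values were seen, was 280, then 0 to 22, then 212 to 624, and 16, 972 and 6 in those samples. In day 12 CD43- cells the 2 RNAs were 2, 365 and 12 and 18, 451 and 64, beside 4, 12 and 2 for HIST1H4C. Of a list of 6 non-polyadenylated RNAs 5 were higher in CD43+ and 4 in CD43- cells of day 6 than on day 4. Replicate 2 of day 16 CD43+ cells, where these RNAs were high, was the highest of its 3 replicates for 38 of the 46 members. The share of all genes with this order was not determined. Whether libraries were made in more than 1 way is not stated, 2 companies sequenced them without a record of which samples, and the part of this in the histone values was not tested.

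**Figure D4:**
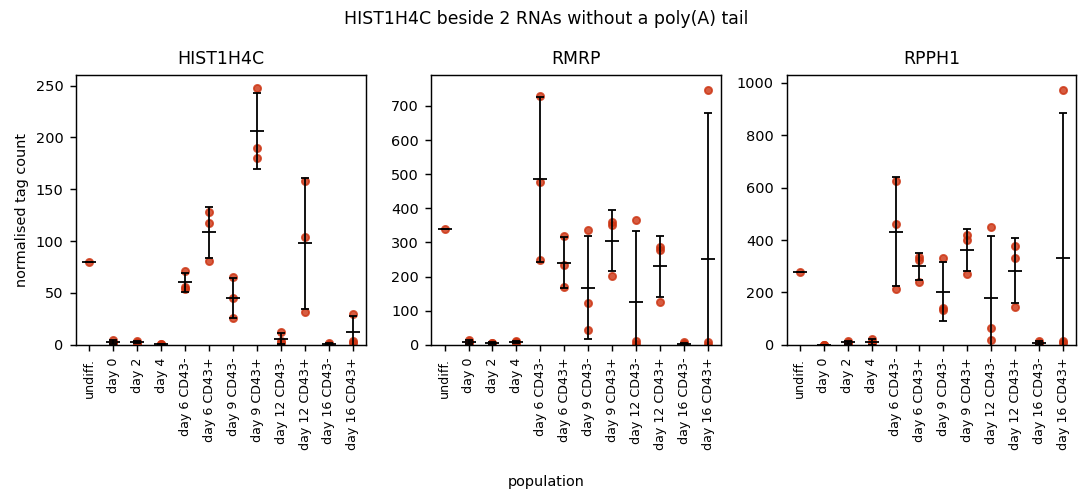
Normalised tag counts by population for HIST1H4C and for RMRP and RPPH1, RNAs without a poly(A) tail; points are samples, bars the mean and SD, and each vertical axis starts at 0. All 3 are near 0 on days 0, 2 and 4 and high in the undifferentiated and day 6 samples, and RMRP and RPPH1 are high in 1 of 3 day 16 CD43+ samples.

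Within CD43+ cells the direction of the calls differed by step. From day 6 to day 9 the calls were 2 higher and 0 lower (3.56% and 3.97% of all genes, with 0 lower at an unadjusted p below 0.05) with a median of 0.97, and every day 9 sample was above every day 6 sample for 31 members (26.5% of all genes). That count of calls was 6 without day 6 CD43+ replicate 2, 1 without day 6 CD43+ replicate 3 and 4 without day 9 CD43+ replicate 2 or 3. From day 9 to day 12 it was 12 lower and 0 higher (6.54% and 8.45%, with 1 higher at an unadjusted p below 0.05), 5 of the 12 being H3 genes, and 7 without day 9 CD43+ replicate 1 or day 12 CD43+ replicate 1. From day 12 to day 16 it was 9 higher and 2 lower (3.79% and 5.26%), and 4 and 2 without day 16 CD43+ replicate 2, the sample with high RMRP.

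HIST1H3G (chr6:26269405-26271815, minus strand) was 6, 8 and 2 on day 6, 26, 17 and 22 on day 9, 1, 0 and 2 on day 12 and 24, 34 and 24 on day 16. The fall to day 12 was -3.62 (SE 0.44, adjusted p = 1.2e-07) and the rise to day 16 was 3.94 (SE 0.44, adjusted p = 8.9e-08). The sum of HIST2H3A and HIST2H3C fell by 2.19 on the log2 scale and rose by 2.23 (adjusted p = 0.00016 and 0.00024). HIST1H1C was at 420, 493 and 475 on day 9, 625, 943 and 778 on day 12 and 840, 988 and 830 on day 16. The replication list over these steps had medians of -0.87 and -0.39 with no call in either step at the 4-fold threshold, and 35 and 14 of its 41 genes had an adjusted p below 0.05.

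Within CD43- cells there was no call from day 6 to day 9 (1.1% of all genes higher and 0.657% lower), where 10 members were higher and 0 lower at an unadjusted p below 0.05, and 1 call without day 6 CD43- replicate 2 or day 9 CD43- replicate 2. From day 9 to day 12 there were 1 higher and 5 lower (4.52% and 2.8%), and from day 12 to day 16 there were 4 higher and 4 lower (4.46% and 5.97%), or 2 and 3 without day 16 CD43- replicate 1. HIST1H3H went from 10, 28 and 24 on day 12 to 91, 152 and 102 on day 16 (2.50, SE 0.38, adjusted p = 7.2e-06), and HIST1H4J went the other way, as given above. HIST2H4A went from 4, 6 and 34 to 139, 137 and 162 (3.78, adjusted p = 0.00014), but its sum with the identical HIST2H4B changed by 0.85 (SE 0.31, adjusted p = 0.029).

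The change of the CD43 difference between consecutive days was tested as an interaction. From day 9 to day 12 it was called lower for 5 members and higher for 0 (4.39% and 4.61% of all genes, 0 higher at an unadjusted p below 0.05), and from day 12 to day 16 higher for 2, the pair HIST2H3A and HIST2H3C, and lower for 0 (2.86% and 2.17%, 0 lower at an unadjusted p below 0.05). The first count was between 1, without day 12 CD43+ replicate 1, and 9, without day 12 CD43- replicate 1. It was 3 without day 9 CD43- replicate 2 or day 9 CD43+ replicate 2 and 2 without day 12 CD43- replicate 2.

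Genes that act on or beside the histone cluster genes were followed as lists of their own. NPAT was 398 to 615 on days 0, 2 and 4 and 366 to 541 in day 16 CD43+ cells, and its largest CD43 difference was a log2 fold change of 0.77 on day 9 (SE 0.14, adjusted p = 3.6e-05). SLBP was 1892, 1882 and 1892 in day 9 CD43+ and 1100, 1332 and 1102 in CD43- cells (0.69, SE 0.12, adjusted p = 2.1e-05), and 918 to 1050 and 862 to 954 on day 16 (0.13, SE 0.12, adjusted p = 0.36). Of 15 genes for histone mRNA transcription and processing, 0, 0, 1 and 1 were called higher in CD43+ cells on the 4 days and none lower. The 1 was MIF4GD, an SLBP partner in histone mRNA translation, with 218, 239 and 210 in day 16 CD43- and 1072, 1168 and 928 in CD43+ cells (2.24, SE 0.14, adjusted p = 7.0e-14).

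Of 12 replication-independent histone genes outside the clusters, 0, 0, 1 and 1 were called higher, the 1 being CENPA, the H3 variant of centromeres, at 45, 44 and 42 against 339, 281 and 332 on day 16 (2.83, SE 0.35, adjusted p = 5.3e-08). Their median log2 level was 10.26 ± 0.05 in day 16 CD43- and 11.34 ± 0.07 in CD43+ cells, which did not overlap. Of 17 histone chaperone genes 0, 2, 2 and 1 were called higher, among them ASF1B, which hands H3 and H4 to the assembly factors, at 88, 88 and 108 against 755, 773 and 936 on day 16 (3.10, SE 0.27, adjusted p = 7.3e-11). CCNE2, a cyclin of the start of S phase, was 12, 11 and 12 against 56, 94 and 98 on the same day (2.68, SE 0.32, adjusted p = 3.9e-08). The counts called higher in the processing, replication-independent and chaperone lists were near or below the shares of all genes given above.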

How the data were processed

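RNA-seq was performed on 34 samples of differentiating H1 hESC in 12 populations. The authors aligned reads with Bowtie2, estimated counts with RSEM and normalised them for GC content by full quantiles, and per the labels the build was hg38 and the tools also included STAR 2.7 and bcl2fastq. The deposited values are whole-number normalised tag counts, used here as a score because they are no longer reads. Every sample sums to 17856940 and depth is unknown, so no counting interval is given. The deposited table also gives the GC content of each gene in percent, 37.87 to 67.4 for the members.

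The members and gene lists were chosen with earlier results of these data known. The filter kept genes that reached 10 in 3 or more samples (19788 of 20255, 45 of 46 members; HIST1H2BM was left out). log2(value + 1) was fitted with limma 3.58.1 (R 4.3.3), with trend, over the 33 replicated samples. Fold changes are on that scale, which understates the change of low genes. Tests adjusted over all genes are two-sided, with a call at an adjusted p below 0.05 and more than 4-fold. On simulated day 12 CD43 data 197 of 200 genes changed by 3 on the log2 scale were recovered, with 0 of the unchanged called. Those 200 were drawn only from genes above a mean level that many members do not reach. The rate of recovery therefore does not cover the low members.

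Named genes were the H1 genes, the 2 highest means of each other type, the largest called rise or fall of a comparison, the polyadenylated list and a few genes of the other lists. Same-numbered day 6 samples deviated together (r of 0.198, 0.109 and 0.199), while those of days 9, 12 and 16 lay between -0.015 and 0.108. The lowest day 6 value was thus close to the highest of the other days, and pairing was not established. Replicate numbers entered only as an alternative, and the main fit used no pairing. No 2 samples had identical values. Alternatives are given at the end. Stem-loops and exonic lengths came from GENCODE v29 and promoters from RefSeq.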

Additional observations from a re-analysis of the deposited data

Results flagged for a closer look

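The CD43 difference of HIST2H3C, an H3 gene identical in transcript to HIST2H3A, was larger on day 16 than on day 12 by 3.29 on the log2 scale (limma interaction, SE 0.60, adjusted p = 0.00042), with 24, 28 and 36 in CD43+ and 22, 44 and 24 in CD43- cells on day 12. The difference of HIST1H2AD was smaller on day 12 than on day 9, with an interaction of -2.69 (SE 0.90, adjusted p = 0.027), and that of HIST1H2BO likewise, with -2.33 (SE 0.87, adjusted p = 0.047). Both of these calls were lost without some single samples, with values of -2.11 (adjusted p = 0.086) for HIST1H2AD without day 12 CD43- replicate 3 and -1.80 (adjusted p = 0.14) for HIST1H2BO without day 9 CD43- replicate 2.

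The single undifferentiated sample, which no test used, lay above all 3 day 0 samples for 29 of the 46 members, beside 30.4% of all genes. With 1 sample this has no replicate check.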

How the results depend on the processing

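Counts of members called follow the order day 6, 9, 12 and 16 for the CD43 comparisons. With a pseudocount of 10 they were 2, 10, 2 and 7 in place of 15, 25, 11 and 24, 6 for CD43+ day 6 against day 4, 4 for CD43+ day 16 against day 12, 3 for CD43- day 16 against day 12, 1 for CD43- day 6 against day 4, and 0 for day 2 against day 0, day 4 against day 2, CD43+ day 9 against day 6, CD43+ day 12 against day 9, CD43- day 12 against day 9 and the day 9 to 12 interaction. A pseudocount of 0.1 gave 7 for CD43- day 6 against day 4. With values of at least 100 in at least 3 samples, which leaves 19 members, the counts were 7, 6, 2 and 5, then 2 for day 4 against day 2, CD43- day 6 against day 4 and CD43- day 12 against day 9, 3 for CD43+ day 12 against day 9, 5 for CD43- day 16 against day 12, 1 for the day 9 to 12 interaction and 0 for CD43+ day 9 against day 6. Median-of-ratios scaling gave 9 on day 6 and 3 for that interaction. Fits of only the populations compared test fewer members (24 to 44) and gave 7 for CD43 on day 12, 3 for day 4 against day 2 and for the day 9 to 12 interaction, 2 for CD43- day 6 against day 4 and CD43- day 12 against day 9, and 4 for CD43- day 16 against day 12.

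With a 2-fold threshold the counts were 27 on day 6 (27.1% of all genes in either direction) and 20 on day 12 (45.4%), then 8 (18.7%), 10 (19.5%), 24 (29.9%) and 9 (21.6%) for day 2 against day 0, day 4 against day 2 and day 6 CD43+ and CD43- against day 4, 11 (16.2%), 20 (32.2%) and 20 (21.5%) for the CD43+ steps, 2 (3.78%), 17 (17.9%) and 14 (24.1%) for the CD43- steps and 10 (17.3%) for the day 9 to 12 interaction. Summing identical pairs, an alternative chosen after seeing the data, gave 1 for day 2 against day 0, 3 for day 4 against day 2 and 1 for the day 12 to 16 interaction. It also reversed HIST2H2AA3 from day 12 to day 16 (0.90 in CD43+ and 0.30 in CD43- cells) and HIST2H4A in CD43- cells from day 9 to day 12 (0.26). Medians near 0 changed sign. That of CD43- day 6 against day 4 was 0.076 and that of CD43- day 12 against day 9 was 0.39 both in fits of only the populations compared and with values of at least 100. Leaving out 1 sample, the first lay between -0.40 (without day 4 replicate 1) and 0.094 (without day 4 replicate 2), and that of CD43- day 16 against day 12 between -0.020 and 0.47 (without day 12 CD43- replicate 1 and replicate 2). Unless named, causes were not tested.

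Leaving out 1 sample gave counts of 9 to 15, 19 to 28, 11 to 14 and 21 to 26 for the CD43 comparisons, 1 to 4 for day 2 against day 0, 3 to 7 for day 4 against day 2, 12 to 16 and 3 to 4 for CD43+ and CD43- day 6 against day 4, 1 to 6, 7 to 15 and 6 to 13 for the CD43+ steps, 0 to 1, 4 to 9 and 5 to 10 for the CD43- steps, and 1 to 9 and 2 to 3 for the interactions. Adding the replicate number as a block kept the CD43 counts at 15, 25, 11 and 24, gave 12 in a fit of the day 6 samples alone, and changed no call of a named gene. No filter on low values moved no count by over 1.5 times. Unknown depth and low values limit all of these.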
